A study of Mus musculus with 12 samples.

Results

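The extraembryonic endoderm genes measured here were Gata6, Gata4, Sox7, Foxa2, Dab2, Afp and Ttr. They were taken as every gene probe of the array whose gene name or description named one of these genes, which gave 9 probes for 7 genes, of 20280 gene probes and 6637 named genes in all. Gata6 and Gata4 had 2 probes each and the other genes 1 probe each. A further 2 probes whose text held the letters of Ttr inside the word attractin were left out.

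Extraembryonic endoderm is the lineage of the yolk sac. Its precursor, the primitive endoderm, separates from the pluripotent epiblast in the blastocyst under FGF signalling and the GATA factors, and then forms visceral endoderm, which wraps the embryo and secretes nutrient-carrying proteins, and parietal endoderm, which lays down basement membrane. Embryonic stem (ES) cells held with leukemia inhibitory factor keep these genes low and switch them on when they are aggregated into embryoid bodies.

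RNA of 4 mouse ES cell lines was hybridised to 12 arrays, 3 for each line, to ask what changes when the pluripotency marker Rex1 (Zfp42) is lost. EB5 was wild type, RKPG9 was a Rex1+/- clone that carried a puromycin resistance and EGFP cassette in place of the start of the Rex1 reading frame, and HP3 and HP4 were Rex1-/- lines. The methods describe Rex1-/- lines made from Rex1+/- cells by gene conversion under high-dose puromycin or with a second vector, and by which route HP3 and HP4 were made is not given in the sources used here. All were undifferentiated ES cells grown without feeder cells and with leukemia inhibitory factor, not embryoid bodies. The line was labelled with Cy3 on every array, and Cy5 held the same reference RNA throughout, a pool of cultured mouse cell lines that included embryo, liver, kidney and testis lines. Values below are log2 ratios of line over reference, so 0 means as bright as the reference after normalisation, and a difference of 1 between lines is 2-fold.

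The arrays fell apart by line, with correlations of log2 ratios of 0.98 to 0.992 within a line and 0.931 to 0.978 between lines. The EB5 files were written by the scanner software with global background correction switched on, and the files of the other lines with it off, so a difference from EB5 cannot be told apart from that setting. This covers the marks for spots well above background, which the software set. The log2 ratios were computed from spot means and local background medians, and how far the setting reached them was not tested. HP4 arrays were the dimmest, with a median Cy3 brightness over gene probes of 86.5 to 90.5 against 114.6 to 178.4 on the other arrays. All 9 measured ES cell markers were well above background on all 12 arrays, with mean log2 ratios of 2.46 to 2.81 by line. The brighter of 2 Zfp42 probes stood at 5.98 ± 0.02, 6.03 ± 0.02, 5.99 ± 0.11 and 5.44 ± 0.21 (SD, n = 3 each) in EB5, RKPG9, HP3 and HP4. Its place relative to the replaced stretch is not given in the sources used here, so it does not check the genotypes. Nothing in the labels ties the arrays of 1 line to separate cultures, and the spread between arrays that the p-values rest on may be technical.

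Most of the 9 probes were close to the floor of the array. The scanner software marks a spot as well above background when its brightness clears its background by a set multiple of the noise. In Cy3, 4 probes carried that mark on all 12 arrays, those for Sox7, Dab2 and Afp and Gata6 probe A_65_P06703. The others carried it in part or not at all. No spot of the 9 probes was flagged as an outlier or as saturated.

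The promoters of Foxa2, Dab2 and Afp are shown because Foxa2 gave the largest difference of the set, and because GATA and forkhead proteins, which the set encodes, are known to bind short motifs in front of endoderm genes. Each is the 250 bases before the outermost start that RefSeq lists on mouse build GRCm38.p6, 5′ to 3′ on the strand of the gene. Capitals mark a GATA-type motif (AGATAA or AGATAG or TGATAA or TGATAG) or a forkhead-type motif (TGTTTAC or TGTTTGC or TATTTAC or TATTTGC), searched on both strands.
Foxa2, chr2:148046970-148047219, minus strand: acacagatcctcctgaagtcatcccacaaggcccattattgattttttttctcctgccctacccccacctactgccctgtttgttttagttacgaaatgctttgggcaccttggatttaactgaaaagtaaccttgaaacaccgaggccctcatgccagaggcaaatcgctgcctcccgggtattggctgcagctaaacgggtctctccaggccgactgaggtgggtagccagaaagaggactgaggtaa
Dab2, chr15:6299539-6299788, plus strand: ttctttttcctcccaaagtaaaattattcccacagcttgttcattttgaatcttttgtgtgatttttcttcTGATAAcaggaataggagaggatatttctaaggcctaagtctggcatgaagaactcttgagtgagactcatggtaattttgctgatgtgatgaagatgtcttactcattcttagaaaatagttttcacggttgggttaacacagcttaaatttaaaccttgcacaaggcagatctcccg
Afp, chr5:90490464-90490713, plus strand: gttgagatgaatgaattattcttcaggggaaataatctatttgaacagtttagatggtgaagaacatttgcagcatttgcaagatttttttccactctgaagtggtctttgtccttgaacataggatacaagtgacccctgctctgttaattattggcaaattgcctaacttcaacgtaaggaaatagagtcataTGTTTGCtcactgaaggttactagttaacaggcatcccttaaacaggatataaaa
The Afp window held 1 forkhead-type motif, the Dab2 window 1 GATA-type motif and the Foxa2 window neither of these letters. Of 32851 annotated starts, 26.5% held a GATA-type and 11.9% a forkhead-type motif in a window of the same length. A match is a description of letters and not of binding. Probe positions within the genes are not given in the sources used here.

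**Figure D1:**
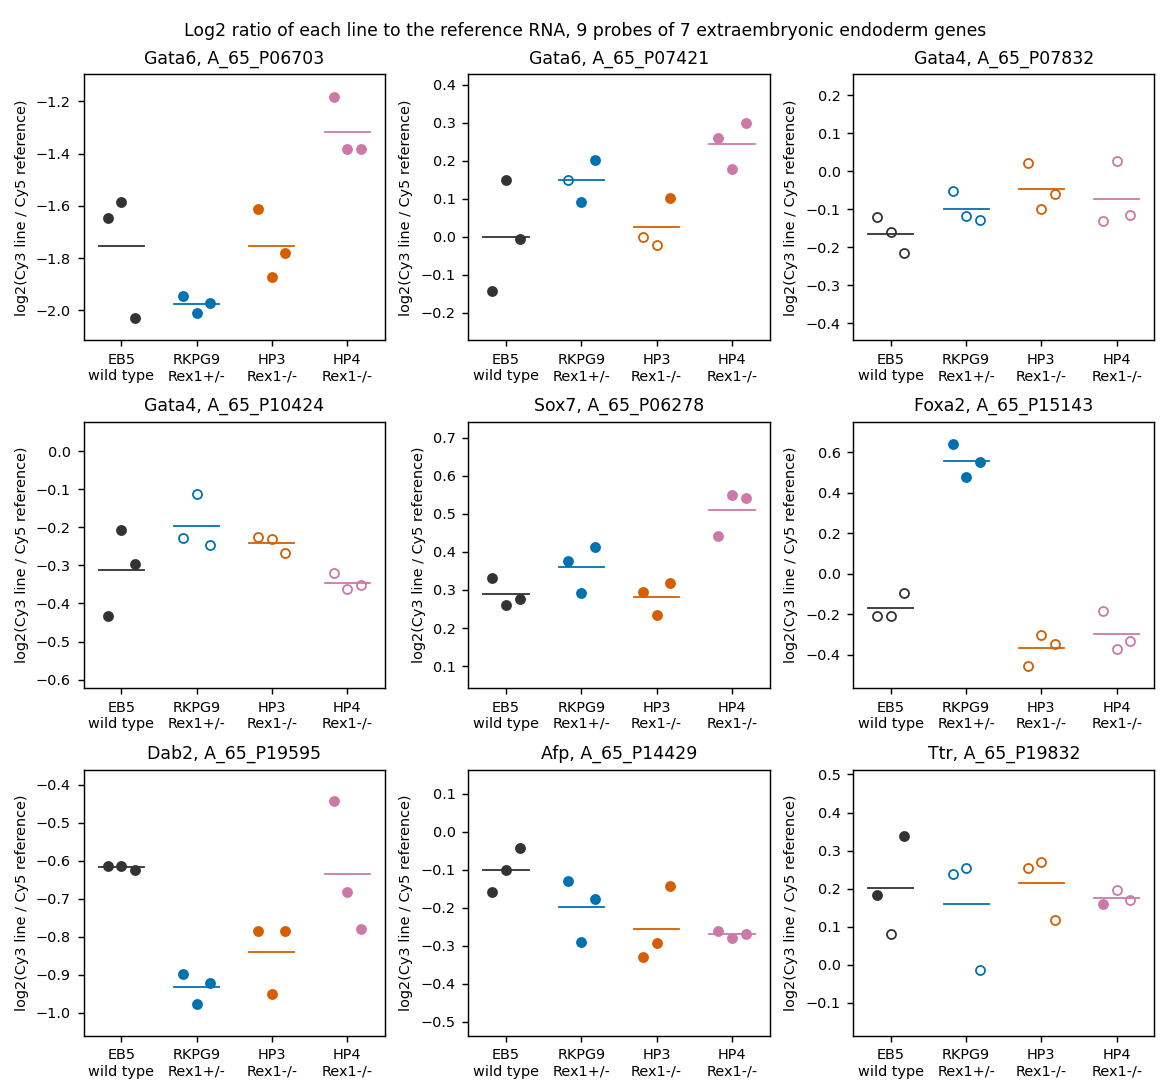
Log2 ratio of line over reference (vertical axis) for each of the 9 probes on 12 arrays, 3 arrays for each of 4 lines along the horizontal axis, each panel with its own scale. Filled points were well above background in Cy3, open points were not, and lines mark means. Foxa2 lies clear of all other lines in RKPG9, at 0.48 to 0.64 against -0.46 to -0.10, and Sox7 and Gata6 probe A_65_P06703 lie above all other lines in HP4.

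Foxa2, a forkhead factor that opens chromatin at endoderm genes and also acts in the node and the floor plate, was higher in the heterozygous line RKPG9 than in every other line. Its log2 ratios were 0.64, 0.48 and 0.55 on the RKPG9 arrays. They were -0.21, -0.21 and -0.10 on the EB5 arrays. On the HP3 arrays they were -0.46, -0.30 and -0.35, and on the HP4 arrays -0.19, -0.37 and -0.33. All 3 RKPG9 arrays lay above all 9 others, and those 9 overlapped in part. The probe was well above background in Cy3 on all 3 RKPG9 arrays and on none of the other 9.

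Because the other lines lay below that mark, their levels are bounds. In normalised Cy3, Foxa2 was at least 1.6-fold brighter in RKPG9 than in EB5, at least 1.62-fold than in HP3 and at least 1.6-fold than in HP4. These bounds set the mean of the RKPG9 arrays against the higher of the dim probe's own value and the faintest spot well above background on each array. For EB5 and HP4 the mean used was that of the dim probe itself (6.22 in each). The bounds were taken after normalisation of each channel and are open to dye bias because the dyes were not swapped. They carry no p-value. The limma test was of the log2 ratios, a separate measure, with adjusted p = 3.28e-06 for RKPG9 against EB5, 6.92e-07 for HP3 against RKPG9 and 8.96e-07 for HP4 against RKPG9. In RNA of whole cultures, more cells that make an RNA and more of it per cell cannot be told apart, here and for the genes below.

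Raw brightness showed the same split. Net Cy3 brightness, the spot mean less the local background median, reached 75.8 to 82.5 on RKPG9 arrays, against 45.0 to 60.7 for EB5, 40.3 to 45.3 for HP3 and 39.1 to 47.6 for HP4. The 162 negative control spots of each array, which match no mouse RNA, had net medians of 42.3 to 51.1 and 95th percentiles of 50.3 to 59.5. RKPG9 lay above the 95th percentile of its own arrays on all 3, and HP3 and HP4 lay below even the median of theirs on all 6. The same reference RNA in Cy5 gave Foxa2 52.7 to 55.2 on RKPG9 arrays, within the range of 42.1 to 78.3 over the other arrays.

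The size of the fitted Foxa2 difference depended on the processing, background and scaling alike, while its direction did not. The fitted values are no bounds, since the other lines were dim. Over 12 other settings the log2 difference of RKPG9 over EB5 ran from 0.14 without background subtraction to 3.05 in the value table that the authors deposited, and the latter alone did not pass (adjusted p = 0.164). For HP3 against RKPG9 it ran from -6.81 to -0.17 and for HP4 against RKPG9 from -6.35 to -0.16, and both passed under all 12. Some of the 12 are not separate checks, since they leave the log2 difference as it was. Settings other than the background moved it too, since HP4 against RKPG9 was -0.85 in the analysis above, -0.26 with median centring and -0.57 with Cy3 alone, and RKPG9 over EB5 was 0.53 under both of these. The bounds of 1.6-fold hold for the normalisation they were computed with.

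**Figure D2:**
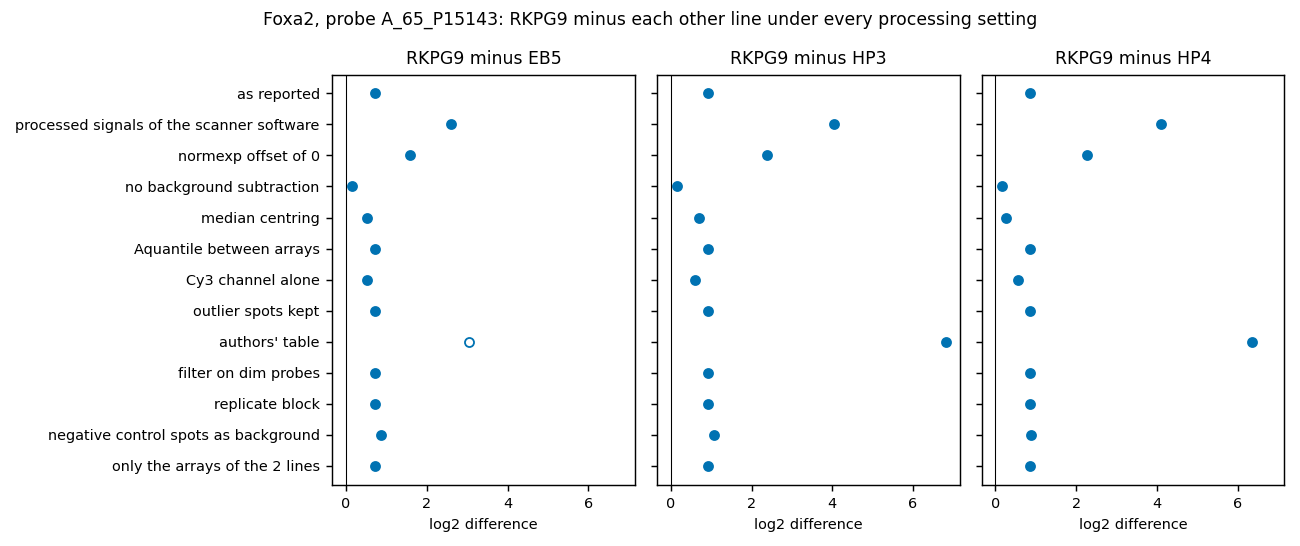
Log2 difference in Foxa2 between RKPG9 and each of the other lines (horizontal axis) under each processing setting (vertical axis). Filled points passed at an adjusted p under 0.05. All points lie to the right of 0, and the value with EB5 from the table of the authors, at 3.05, is the one open point.

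**Figure D3:**
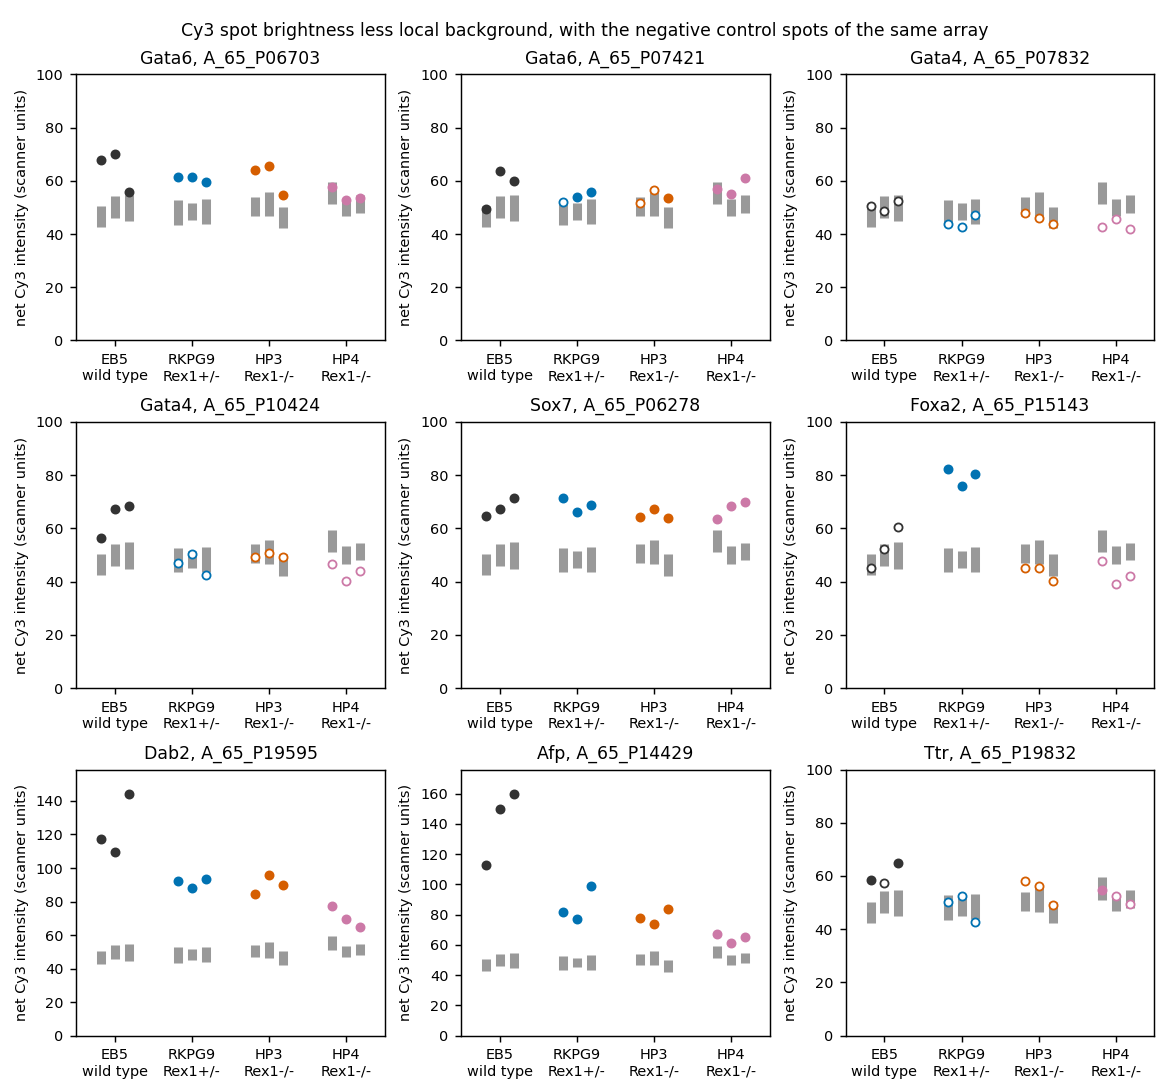
Net Cy3 brightness in scanner units (vertical axis, from 0) of the 9 probes on each array, by line. Filled points were well above background, open points were not, and grey bars span the median to the 95th percentile of the 162 negative control spots of the same array. Foxa2 clears the bars on all 3 RKPG9 arrays at 75.8 to 82.5 and falls below them in HP3 and HP4.

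Foxa2 in EB5, HP3 and HP4 was not well above background on any array. HP3 lay below EB5 in the fit (limma adjusted p = 0.0301), but both lines were dim, so no fold is given, and the call was lost without EB5 array 3 or HP3 array 1 or 3 (adjusted p up to 0.113) and under 5 of 12 other settings (adjusted p of 0.0658 to 0.43). EB5 against HP4 and HP4 against HP3 did not pass (adjusted p = 0.119 and 0.409). With median centring HP4 passed as higher than EB5 (adjusted p = 0.0027), so the order of EB5 and HP4 depends on the processing. The order of the means was RKPG9, EB5, HP4 and HP3, and of the neighbours in it the first pair alone differed beyond the spread.

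Gata6, the factor that sets primitive endoderm apart from epiblast, was read by 2 probes that gave unlike patterns. The gene lies on chromosome 18 from 11052510 to 11085636 of GRCm38.p6. Probe A_65_P06703 was bright in the reference and faint in every ES line. Its log2 ratios were -1.65, -1.58 and -2.03 in EB5 and -1.95, -2.01 and -1.97 in RKPG9. They were -1.61, -1.87 and -1.78 in HP3 and -1.18, -1.38 and -1.38 in HP4. The 3 HP4 arrays were higher than all others, and EB5, RKPG9 and HP3 overlapped except that HP3 lay above RKPG9.

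In the fit, HP4 was above RKPG9 by 0.66 ± 0.11 on the log2 scale (SE, limma adjusted p = 0.000432), and above EB5 and HP3 by 0.44 ± 0.11 each (adjusted p = 0.00585 and 0.0102). The order of the means was HP4, EB5, HP3 and RKPG9, and EB5 and HP3, and HP3 and RKPG9, did not differ beyond their spread. The brightness of the spot went the other way. Net Cy3 was 52.8 to 57.6 in HP4 and 54.8 to 70.1 in the other lines, and HP4 did not reach the 95th percentile of its negative control spots on any array, whereas the other lines passed it on all 9. Net Cy5 was 500.4 to 578.1 on HP4 arrays and 518.8 to 724.4 on the others. The part that the dim HP4 arrays had in the higher ratio was not tested. With the Cy3 channel alone, HP4 stood at 0.09 against EB5, -0.01 against HP3 and 0.03 against RKPG9, and none passed. With a normexp offset of 0 none passed either, at 0.29, 0.35 and 0.53. Most ES cell markers were lower in HP4 against HP3 and RKPG9, with 6 of 9 lower against HP3 (median -0.49), 6 against RKPG9 (median -0.31) and 3 against EB5 (median -0.15). Over all probes 14.7%, 19.2% and 26.5% were lower in these comparisons. In HP4, 1 marker was higher against RKPG9 and 1 against EB5. The part of the ES cell markers in the higher Gata6, Sox7 and Pdgfra values of HP4 was not tested.

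Gata6 probe A_65_P07421 was faint in both channels. It was well above background in Cy3 on 3 EB5, 2 RKPG9, 1 HP3 and 3 HP4 arrays. Its log2 ratios were -0.14, 0.15 and -0.01 in EB5 and 0.15, 0.09 and 0.20 in RKPG9, and -0.00, -0.02 and 0.10 in HP3 and 0.26, 0.18 and 0.30 in HP4. HP4 was above EB5 by 0.25 ± 0.07 (SE, limma adjusted p = 0.0112) and above HP3 by 0.22 ± 0.07 (adjusted p = 0.0299), and did not pass against RKPG9 (adjusted p = 0.277), where the first probe gave its largest difference. The call against HP3 was lost without HP3 array 1 or 2 or HP4 array 1 or 3 (adjusted p up to 0.0965) and with negative control spots as background (adjusted p = 0.0745). Without background subtraction neither call passed, at 0.03 each (adjusted p = 0.0998 against EB5 and 0.103 against HP3). No neighbours in the order HP4, RKPG9, HP3 and EB5 differed beyond their spread. Net Cy3 was 49.5 to 63.5 in EB5 and 55.1 to 60.9 in HP4, so the brightness overlapped.

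Gata4, the partner of Gata6 that drives visceral endoderm genes, was at the floor. The gene lies on chromosome 14 from 63198914 to 63271712 of GRCm38.p6. Probe A_65_P07832 was not well above background in Cy3 on any of the 12 arrays, with log2 ratios between -0.22 and 0.03 and net Cy3 of 41.9 to 52.4. With limma it passed in 0 of 6 comparisons (lowest adjusted p = 0.0908), and 1 of the 6, HP3 against EB5, had an unadjusted p under 0.05. With median centring HP4 passed as higher than HP3 at this probe (adjusted p = 0.00242). Probe A_65_P10424 was well above background on the 3 EB5 arrays and on none of the other 9.

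At probe A_65_P10424 the brightness and the ratio differed. Net Cy3 was 56.4, 67.3 and 68.3 in EB5 and 40.1 to 50.7 in the other lines, with no overlap. Taken in Cy3 after normalisation, EB5 was at least 1.14-fold brighter than HP3, at least 1.2-fold brighter than HP4 and at least 1.22-fold brighter than RKPG9. In each the mean used was that of the dim probe itself (6.35 in HP3, 6.28 in HP4 and 6.25 in RKPG9). These are thus measured values close to the negative control spots, and they carry no p-value. The reference RNA was brighter on the same arrays, with net Cy5 of 130.2 to 144 in the EB5 set against 46.1 to 63.6 elsewhere. The log2 ratios were -0.43, -0.21 and -0.30 in EB5 and -0.23, -0.11 and -0.25 in RKPG9, and overlapped. In HP3 they were -0.23, -0.23 and -0.27, and in HP4 -0.32, -0.36 and -0.35. None of the 3 comparisons with EB5 passed (limma adjusted p = 0.121 to 0.638). In this fit RKPG9 and HP3 lay above EB5 (0.12 and 0.07) and HP4 below it (-0.03). With median centring HP4 passed as higher than EB5 (0.59, adjusted p = 7.66e-06) and as higher than HP3 (adjusted p = 0.00487). HP4 fell below RKPG9 in the fit (adjusted p = 0.0437), but neither line was well above background and no fold is given. That call was lost without any 1 of 5 of the 6 arrays (adjusted p up to 0.166), and with median centring HP4 lay above RKPG9 by 0.19 (adjusted p = 0.0312).

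Sox7, a SoxF factor of primitive and visceral endoderm, was well above background in Cy3 on all 12 arrays, though dim. The gene lies on chromosome 14 from 63943706 to 63950732 of GRCm38.p6. Log2 ratios were 0.33, 0.26 and 0.28 in EB5 and 0.38, 0.29 and 0.41 in RKPG9. They were 0.30, 0.24 and 0.32 in HP3 and 0.44, 0.55 and 0.54 in HP4. The HP4 arrays lay above all others, and the other 3 lines overlapped.

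In the fit, Sox7 in HP4 was above EB5 by 0.22 ± 0.04 (SE, limma adjusted p = 0.00172), above HP3 by 0.23 ± 0.04 (adjusted p = 0.00296) and above RKPG9 by 0.15 ± 0.04 (adjusted p = 0.0159), or 1.17-fold, 1.17-fold and 1.11-fold. The order of the means was HP4, RKPG9, EB5 and HP3, and of the neighbours HP4 and RKPG9 alone differed. Net Cy3 barely moved, at 63.6 to 70.1 in HP4 and 63.8 to 71.4 in the others, while net Cy5 was 32.0 to 44.4 on HP4 arrays and 40.6 to 65.5 on the others. The part of the dim HP4 arrays in this result was not tested. The call against RKPG9 was lost without RKPG9 array 2 or HP4 array 2 or 3 (adjusted p up to 0.0713) and with negative control spots as background (adjusted p = 0.0605). Without background subtraction it was lost too (0.03, adjusted p = 0.0887), as was the call against EB5 (0.03, adjusted p = 0.0543). The call against HP3 passed under all 12 other settings, some of which leave the log2 value unchanged, and without any 1 array.

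Dab2, an endocytic adaptor that primitive endoderm needs to sort from the epiblast, was bright enough to be well above background on all 12 arrays. On the log2 scale its ratios were -0.61, -0.61 and -0.63 in EB5 and -0.90, -0.98 and -0.92 in RKPG9. In HP3 they were -0.79, -0.95 and -0.79, and in HP4 -0.44, -0.68 and -0.78. EB5 lay above RKPG9 and HP3 with no overlap, and HP4 spread across the range of EB5.

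Dab2 in RKPG9 differed from EB5 by -0.32 on the log2 scale (95% interval -0.48 to -0.15, limma adjusted p = 0.00587), which is 1.24-fold, and HP3 by -0.22 (interval -0.385 to -0.06, adjusted p = 0.0394). HP4 was above RKPG9 by 0.30 ± 0.07 (SE, adjusted p = 0.00716), and HP4 against HP3 did not pass (adjusted p = 0.0565), nor did HP4 against EB5 (adjusted p = 0.871). No neighbours in the order EB5, HP4, HP3 and RKPG9 differed beyond their spread. The difference of HP3 from EB5 did not pass without any 1 of the 6 arrays of both lines, with adjusted p of 0.0516 to 0.138. With Cy3 alone none of the 3 Dab2 differences passed, at -0.11 for HP3 and -0.18 for RKPG9 against EB5 and 0.06 for HP4 against RKPG9. HP4 against RKPG9 was also lost with signals as the scanner software processed them (adjusted p = 0.393), an offset of 0 (adjusted p = 0.223) and the table of the authors (adjusted p = 0.399), and HP3 against EB5 without background subtraction (adjusted p = 0.45).

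Afp, the fetal carrier protein of yolk sac and liver, was well above background on all 12 arrays. Its log2 ratios were -0.16, -0.10 and -0.04 in EB5 and -0.13, -0.29 and -0.18 in RKPG9. They were -0.33, -0.29 and -0.14 in HP3 and -0.26, -0.28 and -0.27 in HP4. HP4 lay below EB5 with no overlap and the other pairs overlapped. HP4 differed from EB5 by -0.17 on the log2 scale (interval -0.29 to -0.05, limma adjusted p = 0.025), or 1.12-fold, and HP3 against EB5 missed the threshold (adjusted p = 0.0509). No neighbours in the order EB5, RKPG9, HP3 and HP4 differed beyond their spread.

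Afp showed how far brightness and ratio can part on these arrays. Net Cy3 was 112.6, 149.7 and 160.0 in EB5 and 61.0 to 98.7 in the other lines. The reference RNA, which was the same everywhere, also gave 323.1 to 465.9 on EB5 arrays and 145.0 to 229.6 on the others. The HP4 difference did not pass without background subtraction (adjusted p = 0.118) or without EB5 array 2 or 3 or HP4 array 2 or 3 (adjusted p = 0.0548 to 0.0922), and with median centring it turned to 0.14 and did not pass (adjusted p = 0.0913).

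Ttr, a secreted carrier of thyroid hormone and retinol made by visceral endoderm, was well above background in Cy3 on 2 EB5 arrays and 1 HP4 array and on no RKPG9 or HP3 array. The gene lies on chromosome 18 from 20664209 to 20674326 of GRCm38.p6. The ratios on the log2 scale were 0.18, 0.08 and 0.34 in EB5 and 0.24, 0.25 and -0.01 in RKPG9. They were 0.26, 0.27 and 0.12 in HP3 and 0.16, 0.20 and 0.17 in HP4. All 4 lines overlapped, and limma passed Ttr in 0 of 6 comparisons, with 0 at an unadjusted p under 0.05. The 95% intervals of the 6 differences lay between -0.21 and 0.23. Net Cy3 was 42.9 to 64.7, beside negative control 95th percentiles of 50.3 to 59.5, so a difference inside these intervals could be missed. The intervals hold for the processing used and do not limit the fold at this brightness. With median centring Ttr passed as higher in HP4 than in EB5 (0.40, adjusted p = 0.000426) and in HP3 (0.32, adjusted p = 0.00298).

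Set side by side, 17 of the 54 pairs of probe and comparison passed an adjusted p under 0.05, and none exceeded 2-fold, with limma. At an unadjusted p under 0.05 there were 21, again with 0 past 2-fold. Of all probes, 0.217%, 0.291% and 0.524% passed at more than 2-fold in HP3, HP4 and RKPG9 against EB5, 0.281% and 0.38% in HP3 and HP4 against RKPG9, and 0.0247% in HP4 against HP3. HP3 against EB5 passed in 2 of 9 probes, both lower, where 30.5% of all probes passed, 11.4% higher and 19.1% lower. HP4 against EB5 passed in 4 of 9, 3 higher and 1 lower, beside 44.8% of all probes, 18.4% higher and 26.5% lower. RKPG9 against EB5 passed in 2 of 9, 1 each way, beside 34.1%, of which 12.6% were higher and 21.6% lower. HP3 against RKPG9 passed in 1 of 9, lower, beside 22.7%, with 12.6% higher and 10.1% lower. HP4 against RKPG9 passed in 5 of 9, 3 higher and 2 lower, beside 40%, with 20.8% higher and 19.2% lower. HP4 against HP3 passed in 3 of 9, all higher, beside 28.5%, with 13.7% higher and 14.7% lower. The share of the 9 lay below that of all probes in the first 4 of these comparisons and above it in the other 2, and with 9 probes no comparison is read as a result about the set. The comparisons share lines and their counts are not independent.

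The median log2 difference over the 9 probes was 0.00 in HP3, -0.02 in HP4 and 0.07 in RKPG9 against EB5, where the median over all probes was -0.02 in each. It was -0.05 and 0.03 for HP3 and HP4 against RKPG9 and 0.07 for HP4 against HP3, where all probes gave 0.00, 0.01 and 0.00.

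**Figure D4:**
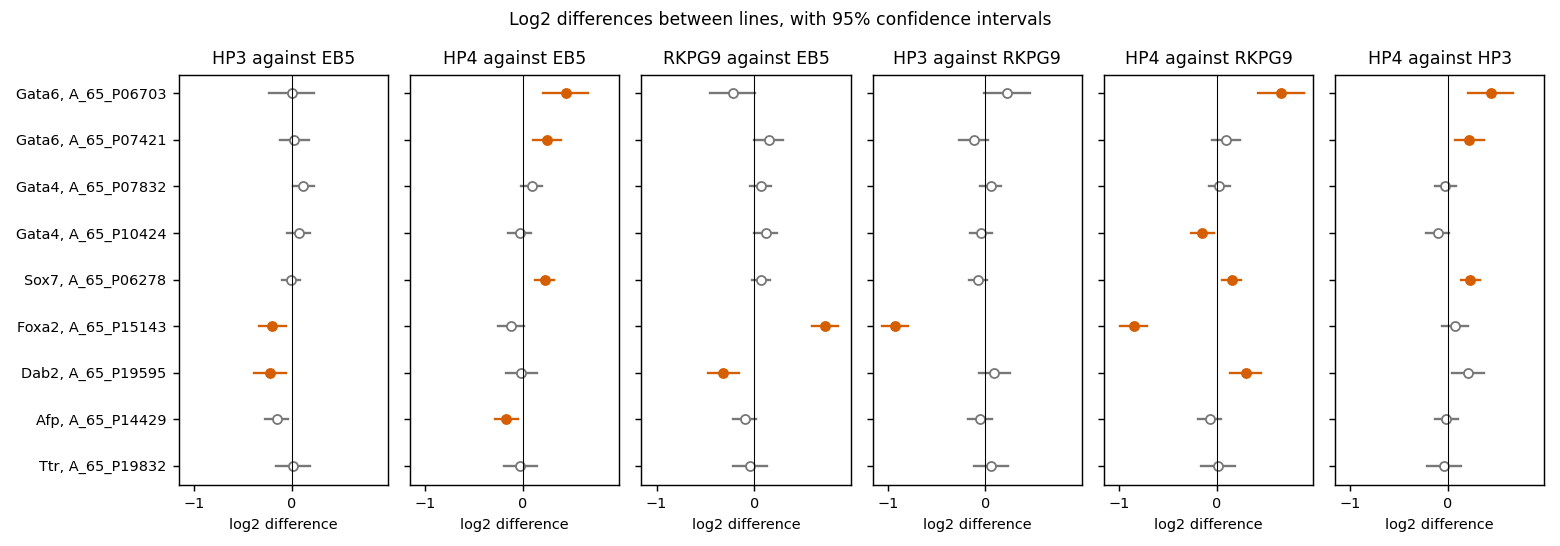
Log2 difference between lines (horizontal axis, first line minus second) with 95% confidence intervals for the 9 probes (vertical axis) in the 6 comparisons. Filled orange points passed at an adjusted p under 0.05 and open grey points did not. Foxa2 lies farthest from 0 in the 3 comparisons that hold RKPG9, at 0.73 for RKPG9 against EB5, -0.925 for HP3 and -0.85 for HP4 against RKPG9. The other line was not well above background there, and these fitted values are no bounds.

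The patterns of the 4 bright probes were set beside those of 7390 other named probes that were well above background on all arrays, as Pearson correlations over the 12 arrays. These arrays share the reference RNA and come from 4 lines, so the values describe likeness and no more. Gata6 probe A_65_P06703 was most like Pdgfrb (r = 0.976), Rps23 (r = 0.972) and Col8a1 (r = 0.966). Sox7 was most like Ncbp3 (r = 0.921), Plod2 (r = 0.911) and Cops7b (r = 0.894). Dab2 was most like Tnfaip2 (r = 0.972), Prkcd (r = 0.967) and Jun (r = 0.955), and Afp most like Adar (r = 0.933), MGC31104 (r = 0.906) and Ap4m1 (r = 0.891).

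The wider endoderm programme was read through 4 lists, with the brightest probe of each gene. Of 19 regulators of primitive endoderm and FGF signalling, 15 were measured, all well above background on 12 arrays. Against EB5, 3 rose and 4 fell in HP3, 4 rose and 3 fell in HP4, and 3 rose and 4 fell in RKPG9, with medians of 0.04, 0.03 and 0.02. Over all probes 30.5%, 44.8% and 34.1% passed in these comparisons, beside 7 of 15 genes in each. Dusp6, a phosphatase induced by FGF and ERK, fell, with log2 differences of -0.66 in HP3, -0.53 in HP4 and -0.66 in RKPG9. Etv5, another target of FGF, rose by 0.43 in HP3 and 0.42 in HP4. Nanog, the epiblast factor, rose by 0.36 in HP3 and 0.38 in RKPG9, the FGF inhibitor Spry4 rose by 0.29 in HP3, and Etv4 rose by 0.22 in RKPG9. The FGF receptor Fgfr2 fell in HP4 (-0.29), and Fgfr1 was lower in HP3 than in RKPG9 (-0.47) and higher in HP4 than in HP3 (0.24). The kinase Mapk3 was higher in HP4 than in RKPG9 by 0.23. Pdgfra, the receptor that marks primitive endoderm, rose by 0.43 in HP4 and fell in RKPG9 (-0.43), and HP4 was above RKPG9 by 0.86 and above HP3 by 0.57. Its net Cy3 was lowest in HP4, at 47.2 to 53.9 against 52.3 to 69.9 in the other lines, as for Gata6 probe A_65_P06703. Sox17, a SoxF relative of Sox7 named here after its values were seen, was well above background on 12 arrays with means of -0.14, -0.09, -0.08 and -0.08 in EB5, RKPG9, HP3 and HP4, and passed in no comparison.

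Of 34 visceral endoderm genes, 13 were measured and 7 were well above background on all arrays. Ihh, a hedgehog ligand of visceral endoderm, was not analysed here. Against EB5, 2 rose and 3 fell in HP3, 3 rose and 2 fell in HP4, and 1 rose and 3 fell in RKPG9, so 5, 5 and 4 of 13 passed beside 30.5%, 44.8% and 34.1% of all probes. Lhx1, counted as lower each time, was not well above background on any array. Apoe, a lipid carrier, rose by 0.65 in RKPG9 and by 0.32 in HP3, while Amot, a regulator of Hippo signalling, fell in HP3 (-0.57). Vil1, of the microvillus, rose by 0.37 in HP3 and 0.26 in HP4. Cdh2, a cadherin, fell in HP3 (-0.36) and RKPG9 (-0.46), and Dpp4, a membrane peptidase, fell in RKPG9 (-0.46) and rose by 0.15 in HP4, where the iron carrier Trf rose by 0.19. Foxa1, the forkhead relative of Foxa2, was not well above background on any array. Between HP4 and HP3, 3 rose and 10 did not pass.

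Of 18 parietal endoderm genes, 17 were measured, 16 of them well above background on all arrays, and its largest changes were against EB5. In HP3 8 fell and 1 rose, in HP4 8 fell and 6 rose, and in RKPG9 7 fell and 2 rose, with medians of -0.05, -0.16 and -0.13. Over all probes, 11.4% rose and 19.1% fell in HP3, 18.4% and 26.5% in HP4, and 12.6% and 21.6% in RKPG9. Sparc, which binds basement membrane collagen, fell, at -0.89 ± 0.04 in HP3, -0.83 ± 0.04 in HP4 and -1.05 ± 0.04 in RKPG9 (SE, limma adjusted p = 4.71e-08, 7.25e-08 and 5.06e-09). In the same order, Vim, an intermediate filament protein, stood at -1.04, -0.66 and -1.51. F3, or tissue factor, gave -0.95, -0.82 and -1.56, and Serpinh1, a collagen chaperone, -0.75, -0.54 and -1.005, and all of these passed. Plat, tissue plasminogen activator, also fell, by -0.30, -0.25 and -0.30 at its brighter probe. Its second probe had means of 0.23 in EB5, 0.36 in HP3, and 0.58 in both RKPG9 and HP4. Lama1, a laminin chain of early basement membrane, rose by 0.68 in RKPG9 and 0.47 in HP3. Lamb1, another laminin chain, was higher at its brightest probe in HP4 than in RKPG9 by 0.84 and in HP3 than in RKPG9 by 0.59. The dimmer Lamb1 probes showed less of this. In RKPG9, HP3 and HP4 their means were -0.11, 0.10 and 0.03, then 0.23, 0.32 and 0.35, and then -0.15, -0.20 and -0.13. Col4a2 was lower in HP3 than in RKPG9 (-0.46), and the collagen Col4a1 and the factor Snai1 were higher in HP4 than in HP3 by 0.30 and 0.33.

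Several of these genes are not specific to parietal endoderm. All 5 measured mesenchymal markers, of which Vim is also on the parietal list, fell in HP3 and in RKPG9, and 4 of 5 fell in HP4, against EB5. The mesenchymal list held 10 genes, and over all probes 19.1% fell in HP3, 26.5% in HP4 and 21.6% in RKPG9. The log2 ratios of these 5 markers summed to -11.35 in EB5, against -18.29 for RKPG9, -17.44 for HP3 and -16.27 for HP4, with all 5 well above background on all 3 arrays of every line. The Thbs1 mean came from 1 EB5 and 2 HP4 arrays and the Col1a2 mean from 2 EB5 arrays, since outlier spots were left out. Of 8 trophoblast markers, 4 were lower in each line and Tfap2c was higher in RKPG9 (0.31), with medians of -0.13 in HP3 and HP4 and -0.08 in RKPG9. The keratins Krt18 (-2.60, -2.10 and -2.52 in HP3, HP4 and RKPG9) and Krt7 (-1.26, -1.01 and -1.20) carried most of their summed ratio, which was -0.40 in EB5 against -4.86 to -4.16 in the others. Mesoderm and definitive endoderm markers summed to -0.63 to -0.03 over 8 genes. The part of these cell types in the parietal values was not tested, and EB5 differed from the other lines in the scanner setting as well.

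Among 10 measured relatives and partners of the set, Gata3, which also marks trophoblast, fell in HP3 against EB5 (-0.63), as did Gata2 (-0.42). HP4 was above HP3 by 0.72 for Gata3 and 0.43 for Gata2. In RKPG9 against EB5, Gata3 (-0.40), Gata2 (-0.27) and the Dab2 interacting protein Dab2ip (-0.21) fell. In HP4, Gata1, a blood cell factor, fell against EB5 (-0.17). Dab1, a neuronal relative of Dab2, also passed as lower in HP4, where it was well above background on 0 of 3 arrays, so no size is given.

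**Figure D5:**
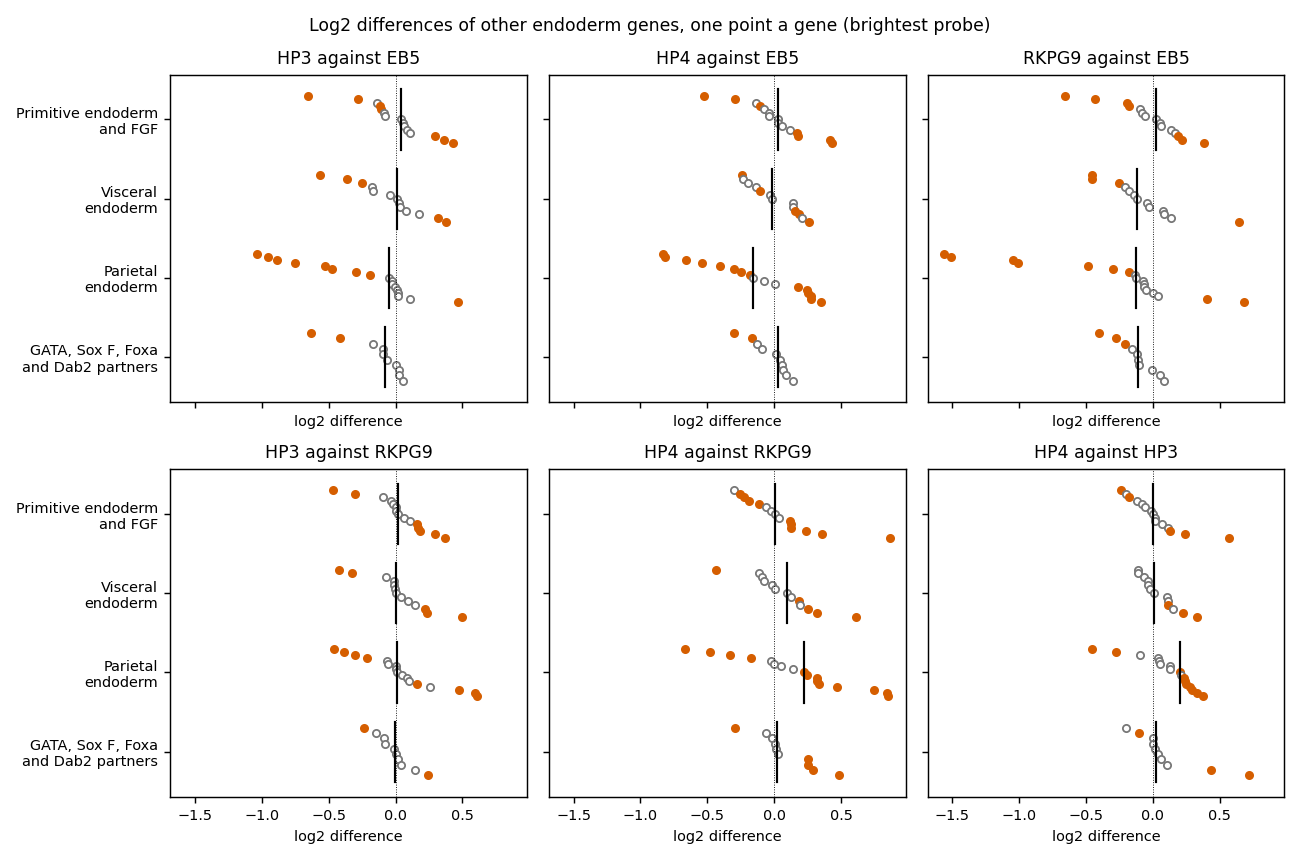
Log2 difference between lines (horizontal axis) for each measured gene of 4 endoderm lists (vertical axis) in 6 comparisons, 1 point a gene, with the median as a black bar. Orange points passed at an adjusted p under 0.05 and open points did not. The parietal list reaches -1.04 in HP3, -0.83 in HP4 and -1.56 in RKPG9 against EB5, while its median stays between -0.16 and -0.05.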

How the data were processed

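Total RNA of 4 ES cell lines, 3 arrays each, was amplified, labelled with Cy3 and hybridised to NIA Mouse 22K Agilent arrays beside a Cy5 universal mouse reference. The deposited files hold spot intensities and log10 ratios that the authors extracted with Agilent Feature Extraction, and a value table on a log10 scale. That table equals the scanner log ratio, turned to line over reference, plus a constant per probe within 0.01 for 93.8% to 95.9% of probes of each array. Its column medians are 2.87 to 2.88, and how the constant was set is not given in the sources used here.

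Mean intensities were corrected against the local background median with normexp (offset 50) and normalised by loess within each array, control and outlier spots carrying no weight. Each gene probe was a single spot on an array, and no spots were averaged. The log2 ratios computed from these deposited intensities were fitted for all 12 arrays with limma 3.58.1 in R 4.3.3, in 6 comparisons with 8 residual degrees of freedom, and p-values were adjusted by Benjamini and Hochberg over all probes tested, up to 20278 in a comparison. A change passed at an adjusted p under 0.05, and changes over 2-fold were counted apart. The number of arrays limits the precision. Spots named as retired (91) were left out. Symbols were updated through RefSeq tables.

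The members and the gene lists were chosen with earlier results of these data known. Named genes were the 7 members, Sparc, Plat and Ihh, up to 4 genes of each wider list with the largest changes that passed in a comparison, and the probes most like each bright member. The code was tested on simulated data. Alternatives covered background, normalisation, channel, filter, value table, replicate block, the lines fitted and each array left out.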

Additional observations from a re-analysis of the deposited data

Results flagged for a closer look

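The direct test between the 2 Rex1-/- lines singled out 3 probes, each as a difference between lines of the same genotype. Gata6 probe A_65_P06703 was higher in HP4 than in HP3 by 0.44 on the log2 scale, Gata6 probe A_65_P07421 by 0.22 and Sox7 probe A_65_P06278 by 0.23, with limma adjusted p of 0.0102, 0.0299 and 0.00296. In all 3, every HP4 array lay above every HP3 array, and 42.7% of all probes had no overlap between these lines. Over all probes, 28.5% passed between these lines, and HP4 arrays were dimmer, with median Cy3 brightness over gene probes of 86.5 to 90.5 against 114.6 to 138.7 in HP3. The part of that brightness was not tested. Groups of 3 arrays were not searched for outlying arrays.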

How the results depend on the processing

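Of the 17 changes that passed, 12 other settings gave 204 values, of which 168 kept direction and call, 33 lost the call and 3 turned. The 12 are not separate checks. Scaling brightness between arrays (Aquantile) left log2 values and p-values as they were. The filter on dim probes, the replicate block and the fit of both lines alone kept the log2 values and moved only the p-values. Scanner-processed signals and the table of the authors could nearly repeat each other, as at -0.46 in both for Dab2 in HP3 against EB5. Leaving out 1 array gave 102 values, of which 77 kept the call, 25 lost it and none turned. Those that turned were Afp in HP4 against EB5 (0.14) and Gata4 probe A_65_P10424 in HP4 against RKPG9 (0.19), both with median centring, and Gata6 probe A_65_P06703 in HP4 against HP3 with Cy3 alone (-0.011). The 37 changes that did not pass gave 432 values under other settings, of which 37 passed in the same direction and 61 turned, and 7 of the 37 passed in the opposite direction at least once, 6 with median centring. Those 6 were Gata4 probe A_65_P10424, Foxa2 and Ttr in HP4 against EB5, and both Gata4 probes and Ttr in HP4 against HP3. The other was Dab2 in HP4 against EB5 without background subtraction, and all 7 were higher in HP4. The causes were not tested. Taking the negative control spots as background was chosen after the values were seen.

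Asking for more than 2-fold left 0 of the 9 probes in all 6 comparisons, and of the wider lists 1 gene in HP3 against EB5, 4 in RKPG9 against EB5 and 0 elsewhere. Against EB5, the 9 probes gave 0 calls in HP3, 2 in HP4 and 4 in RKPG9 without background subtraction, 7 in HP4 and 4 in RKPG9 with median centring, 1 in HP3 with Cy3 alone and 1 in RKPG9 with the value table of the authors. Against RKPG9, they gave 2 in HP3 and 3 in HP4 without background subtraction, 8 in HP4 with median centring, 3 in HP4 with Cy3 alone or with an offset of 0, and 2 in HP3 with only the arrays of both lines. HP4 against HP3 gave 8 with median centring. With 1 array left out the counts ran from 0 to 2 for HP3, 3 to 5 for HP4 and 2 to 4 for RKPG9 against EB5, stayed at 1 for HP3 and ran from 3 to 5 for HP4 against RKPG9, and from 2 to 3 for HP4 against HP3. They were 0 for HP3 against EB5 without EB5 array 3 or HP3 array 1, and 4 for RKPG9 against EB5 without EB5 array 2.

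Of 18 correlations between arrays of the same number in different lines, 4 exceeded 0.1 (-0.176 to 0.202). Arrays of different number were not compared, so these values cannot settle whether the numbers pair the lines. A replicate block gave 3, 4 and 2 calls for HP3, HP4 and RKPG9 against EB5, 1 and 5 for HP3 and HP4 against RKPG9 and 4 for HP4 against HP3.

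Over all probes, median centring gave 16096 calls for HP4 against EB5 (9069 in the main analysis), 15550 for HP4 against RKPG9 (8113), 14280 for HP4 against HP3 (5768) and 3066 for HP3 against RKPG9 (4602). It moved the share of higher calls from 37.5% to 26.3% for HP3 against EB5 and from 55.6% to 38.8% for HP3 against RKPG9. Cy3 alone gave 2078, 5316 and 1895 calls for HP3 and HP4 against RKPG9 and HP4 against HP3. Signal close to the negative control spots limits Gata4, Ttr and Foxa2 outside RKPG9.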

Other observations

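After the Foxa2 values had been seen, the same pattern was counted over the array. Of 20280 probes, 99 (0.488%) were higher in RKPG9 by more than 0.5 on the log2 scale and passed against each of the other 3 lines. Of the 52 with a symbol, 3 were hedgehog pathway genes. These were looked for by name, and the 52 were not sorted by other pathways or by chromosome. Ly75 rose most over EB5 (1.83), and Sall1 (1.34) and Sult6b1 (1.33) were also among the 52. Ptch1, the hedgehog receptor, was higher in RKPG9 than in EB5 by 1.61 ± 0.04 (SE, limma adjusted p = 2.12e-10), the factor listed as Gli by 1.82 ± 0.06 (adjusted p = 2.12e-09) and the inhibitor Hhip by 1.59 ± 0.09 (adjusted p = 1.58e-07). Against RKPG9 they stood at -0.73, -0.84 and -1.20 in HP3 and at -1.25, -1.07 and -1.40 in HP4. Against EB5, Ptch1 and Gli were also higher in HP3 (0.87 and 0.99) and in HP4 (0.36 and 0.76), and Hhip in HP3 (0.39). Gas1, a coreceptor, was lower in RKPG9 than in EB5 (-0.28, adjusted p = 0.012). The ligand Shh did not pass between RKPG9 and EB5 (adjusted p = 0.614). These comparisons share the RKPG9 arrays.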
